A study of Mus musculus with 2 samples.

Results

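The defensin genes encode small cysteine-rich antimicrobial peptides, and the histone mark H3K9me3 (histone H3 trimethylated at lysine 9) was examined here across all genes whose symbol begins with Defa or Defb followed by a digit, or with Defa-ps or Defb-ps. The rule found 69 genes among 37273 in the mm9 annotation (27 alpha and 42 beta) and 83 among 49943 in the mm10 annotation (40 alpha and 43 beta). The 2 sets share 64 symbols. In mm9, 10 of the 27 alpha genes and 41 of the 42 beta genes are annotated as protein-coding, and the other 18 members are 17 pseudogenes and 1 processed transcript.

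The mark was mapped by ChIP-seq in E14TG2a.4, a male mouse embryonic stem cell line whose stage the labels give as embryonic, 3.5 day. The series holds 1 group of 2 biological replicates, taken from separate biosamples of this single line, with no treatment, no second condition and no control library analysed here. The data are lists of called regions with the authors' fold enrichment for each, so read depth is unknown and a gene outside every region is unmarked only at the depth of these lists. The mm9 lists hold wide regions, 43006 in replicate 1 and 53405 in replicate 2, and the mm10 lists hold narrow peaks, with 123489 in the authors' replicated list. A base covered in both mm9 replicates is called shared. Among marker genes, 0 of 8 of stem cells and 2 of 8 of fibroblasts (Lum and S100a4) carried a shared region at a start site, and the stem cell gene Esrrb had one in replicate 2 only, at 3.02. With 5.54% of all protein-coding genes marked, such counts cannot check the labelled cell type, and expression was not measured.

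Alpha defensins, called cryptdins in the mouse, are stored in the granules of Paneth cells at the base of the small intestinal crypts and are released into the gut lumen after the protease Mmp7 has cut their precursors. Beta defensins are made by epithelia of the skin, airways and genital tract, and many of the mouse genes are known from the epididymis. H3K9me3 is a mark of silent chromatin that in stem cells is known above all at repeated sequence, and neither defensin family has a known role in these cells.

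The members lay in 6 blocks of mm9. Chromosome 8 held a proximal beta block of 522.8 kb with 18 members (chr8:18974940-19497775), an alpha block of 695.2 kb with 23 members (chr8:22165224-22860472) and, directly after it, a distal beta block of 172.3 kb with 9 members (chr8:22887071-23059322). The other beta blocks were 11 genes in 164.0 kb of chromosome 2, 5 genes in 80.63 kb of chromosome 14 and 3 genes in 55.09 kb of chromosome 1. Joining members up to 500 kb apart unites the alpha and distal beta blocks, and they were separated by family after their positions were seen. Defa-ps12, Defa-ps13, Defa-ps14 and Defa-ps15 carry alpha symbols but lie among the proximal beta genes. They are counted as alpha by symbol and in the proximal beta block by position.

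The alpha genes were more alike in upstream sequence than the beta genes. Over the 250 bases before the annotated start in mm9, the 45 pairs of protein-coding alpha genes had a median identity of 68.4% (46.7 to 100%), and 5 pairs reached 90%. The 820 pairs of beta genes had a median of 46.3% (34.5 to 88.5%), none reached 90%, and alpha set against beta gave 46.4%. Defa21 and Defa22 were identical over all 250 bases and Defa20 shared 98.0% with each of them. The 120 bases before the start of 4 alpha genes are printed first because they show this likeness, read 5′ to 3′ from the mm9 genome before GENCODE M1 starts, with the letters TATAAA in capitals:
Defa21, chr8:22165104-22165223, plus strand: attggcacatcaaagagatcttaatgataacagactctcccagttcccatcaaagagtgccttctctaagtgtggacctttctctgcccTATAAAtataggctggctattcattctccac
Defa22, chr8:22301836-22301955, plus strand: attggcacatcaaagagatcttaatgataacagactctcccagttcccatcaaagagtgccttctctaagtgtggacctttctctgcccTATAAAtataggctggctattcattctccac
Defa20, chr8:22619610-22619729, plus strand: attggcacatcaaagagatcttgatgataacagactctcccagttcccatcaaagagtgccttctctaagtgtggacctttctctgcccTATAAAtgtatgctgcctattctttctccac
Defa24, chr8:22844846-22844965, plus strand: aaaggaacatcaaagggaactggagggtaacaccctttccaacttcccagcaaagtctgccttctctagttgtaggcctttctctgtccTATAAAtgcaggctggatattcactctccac
The same stretch is printed for 5 beta genes. Defb4, Defb35 and Defb42 are the protein-coding members with a start site marked in both replicates. Defb6 and Defb3 resemble Defb4 in sequence and were not marked. Every stretch lies before the annotated 5′ end of its gene. For Defb42, which has 4 annotated starts, that end was not marked, and the shared region lay 0.491 kb from another of its starts. None of the 5 holds TATAAA in these 120 bases:
Defb4, chr8:19198586-19198705, plus strand: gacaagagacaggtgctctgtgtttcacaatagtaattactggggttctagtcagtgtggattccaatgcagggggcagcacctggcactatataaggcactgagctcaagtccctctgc
Defb6, chr8:19225358-19225477, plus strand: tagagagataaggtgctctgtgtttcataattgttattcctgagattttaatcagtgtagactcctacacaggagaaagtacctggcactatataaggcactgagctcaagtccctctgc
Defb3, chr8:19293240-19293359, plus strand: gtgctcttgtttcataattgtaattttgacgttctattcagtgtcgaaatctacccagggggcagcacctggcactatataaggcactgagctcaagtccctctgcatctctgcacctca
Defb35, chr8:23048704-23048823, plus strand: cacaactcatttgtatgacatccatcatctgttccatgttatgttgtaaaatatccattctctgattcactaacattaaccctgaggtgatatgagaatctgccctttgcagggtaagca
Defb42, chr14:63665708-63665827, plus strand: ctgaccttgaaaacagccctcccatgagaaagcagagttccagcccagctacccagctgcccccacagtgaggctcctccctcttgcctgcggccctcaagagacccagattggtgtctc
The letters TATAAA, searched on both strands of the 250 bases, occurred in 8 of 10 protein-coding alpha genes (80.0%), in 9 of 41 beta genes (22.0%) and in 12.3% of the 22385 genes searched, which were all protein-coding genes and the members. Both families were poor in CpG there, with a median of 1 CpG in each, against 8 over all genes searched. Only these exact letters were searched, and variants of them were not counted. The printed stretches of Defb4, Defb6 and Defb3, for example, hold the letters TATATAA. A match to these letters, or the lack of one, is a description of the sequence only.

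H3K9me3 covered the start sites of few defensins. In mm9, counting any region within 1 kb of a transcript start, 7 of 69 members (10.1%) were marked in both replicates, 8 in replicate 1 and 12 in replicate 2. Among protein-coding members the count was 3 of 51, or 5.88%, which is close to the 5.54% of all 22367 protein-coding genes (6.33% in replicate 1 and 7.83% in replicate 2). Of the 18 members that do not code for protein, 4 were marked, or 22.2%, beside 12.2% of all pseudogenes. In replicate 1 the count was again 4 (13.8% of pseudogenes) and in replicate 2 it was 7 (15.8% of pseudogenes). None of the 10 alpha genes that mm9 annotates as protein-coding was marked, in replicate 1, in replicate 2 or in both. The marked members that mm9 annotates as protein-coding were all beta genes, 3 of 41, or 7.32%. This split depends on the annotation. The mm10 annotation counts 29 alpha genes as protein-coding, among them Defa-ps8, a pseudogene in mm9 that was marked in both replicates.

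The marked start sites lay in regions of 2.51-fold to 4.72-fold enrichment. Defb4, an inducible beta defensin of epithelia, lay wholly inside a 13.6 kb shared region, chr8:19197001-19210600, whose fold enrichment was 2.51 in replicate 1 and 3.40 in replicate 2 (mean 2.95 ± 0.629, SD, n = 2). The same region reached the start of Defa-ps12, so these 2 calls are not independent. Defb35 was also covered along 100% of its body, at 3.88 and 4.72 (mean 4.30 ± 0.598). Defb42, a beta defensin of chromosome 14 with 4 annotated starts, had 3.76 in replicate 1 and 3.17 in replicate 2 (mean 3.47 ± 0.421). It was the only one of the 7 whose value was lower in replicate 2.

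Of the alpha symbols, 3 pseudogenes and 1 processed transcript (Defa-ps1) of the mm9 annotation were marked. Defa-ps8, inside the alpha block, was covered along 100% of its body at 3.20 and 4.56 (mean 3.88 ± 0.957). Defa-ps1, in the same block, had 2.82 and 3.23 (mean 3.03 ± 0.292), and the shared region ended 84 bp from its start. Defa-ps14, among the proximal beta genes, had 3.40 and 4.49 (mean 3.95 ± 0.773). No member had a region of at least 4-fold in both replicates at its start, where 1.82% of all protein-coding genes had one.

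A further 6 members had a region at the start in 1 replicate only. In replicate 1 this was Defb38, at 1.58. In replicate 2 it was Defb39 at 1.58, with an overlap of 10 bp, Defb2 at 2.05, Defa-ps6 at 2.87, Defa-ps10 at 4.14 and Defa-ps18 at 5.43. Replicate 2 alone therefore marked 5 members and replicate 1 alone marked 1, and replicate 2 also has the longer list over the whole genome.

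**Figure D1:**
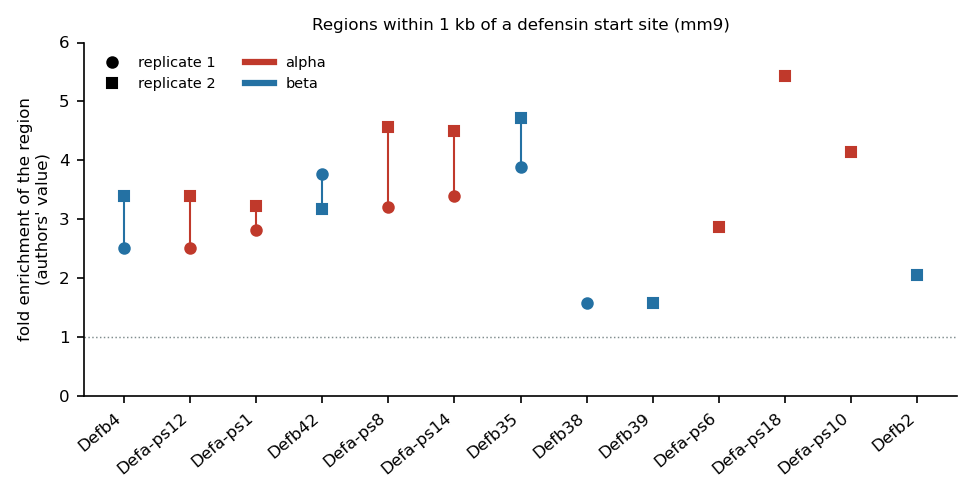
Fold enrichment of the region within 1 kb of a start site (authors' linear value, vertical axis) for the 13 members with a region in any mm9 replicate (horizontal axis). Circles are replicate 1, squares replicate 2, a line joins the replicates of a member called in both, and the dotted line is a fold of 1; values of the 7 members called in both run from 2.51 to 4.72.

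Close relatives by upstream sequence lay at different distances from the mark. Defb4 shared 70.3% of its upstream bases with Defb6 and 62.8% with Defb3, and the start sites of these 2 lay 14.9 kb and 82.8 kb from any shared region. Defb3 and Defb8, which were 87.4% identical, lay 82.8 kb and 6.41 kb away. In replicate 2 alone Defb3 lay nearer, 17.4 kb from a region, with Defb6 at 13.9 kb and Defb8 at 6.41 kb. This is a description of 4 genes chosen after their values were seen.

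Defensin start sites, the 7 marked ones included, lay nearer to the mark than most start sites. The median distance from a member's start to the nearest shared region was 10.1 kb, with 10.2 kb for alpha and 9.47 kb for beta genes, beside 27.0 kb for all protein-coding genes and 14.9 kb for all pseudogenes. Of the 69 members, 33 lay within 10 kb (47.8%), against 26.1% of protein-coding genes and 40.1% of pseudogenes. Within 5 kb lay 20 of them (29.0%), against 15.0% of protein-coding genes and 26.2% of pseudogenes. Protein-coding members alone had 45.1% within 10 kb and 23.5% within 5 kb. Of other clustered families, serpins and killer lectin receptors gave similar shares, with 43.3% of serpins and 46.4% of killer lectin receptors within 10 kb and 18 of 60 and 7 of 28 of them within 5 kb. Keratin-associated protein genes had 28.3% within 10 kb and 8 of 46 within 5 kb. Members of a block share regions, so these are not 69 separate observations. Within the alpha block the nearest start was that of Defa-ps8, inside a region, and the farthest was that of Defa23, at 52.7 kb. Among protein-coding alpha genes the cryptdin genes Defa5 at 7.28 kb, Defa24 at 8.17 kb, Defa3 at 10.5 kb, Defa17 at 12.5 kb, Defa20 at 19.1 kb and Defa21 at 42.0 kb filled the range between. Single replicates had nearer regions for some of these genes, so the ranking holds for shared regions only. Defa23 lay 36.3 kb from a region in replicate 1 and 3.08 kb in replicate 2, and Defa21 6.82 and 10.6 kb.

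The range of distances differed among the beta blocks. In the proximal block Defb7 lay at 1.50 kb and Defb14, a beta defensin of skin, at 2.64 kb. Distances there ran from 0 at Defb4 to 82.8 kb at Defb3, and to 84.5 kb at the alpha symbol Defa-ps13. In the distal block they ran from 0 at Defb35 to 50.3 kb at Defb1, the beta defensin that kidney and many other epithelia express without induction. On chromosome 2 the range was 3.87 kb at Defb22 to 73.1 kb at Defb36, with Defb19 at 55.6 kb. On chromosome 14 it was 0.491 kb at Defb42 to 71.1 kb at Defb48, which lay 17.9 kb from a region in replicate 1 alone. On chromosome 1 it was 4.44 kb at Defb44-ps to 10.0 kb at Defb41.

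**Figure D2:**
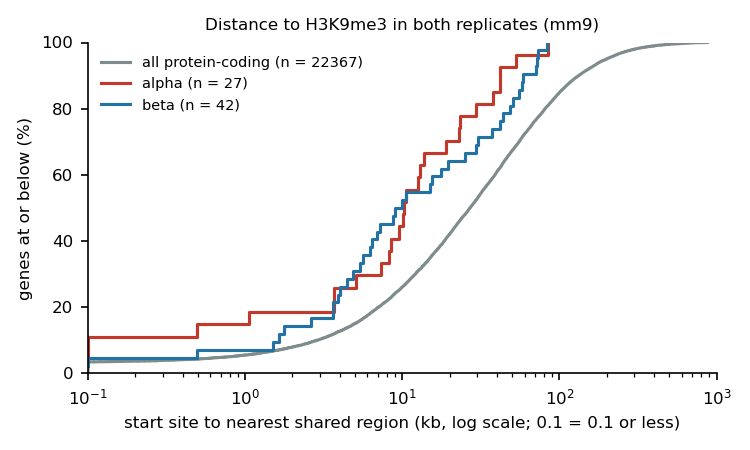
Cumulative share of genes (vertical axis, %) by distance from a start site to the nearest region shared by both mm9 replicates (horizontal axis, kb, log scale, with 0.1 standing for 0.1 kb or less). Alpha and beta genes reach 50% near 10 kb, at medians of 10.2 and 9.47 kb, and all protein-coding genes at 27.0 kb.

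Most of the mark in the blocks lay between the genes. Promoters of the members, the 1 kb on either side of a start, held 4.42% of the shared bases of the alpha block and 5.07% of those of the beta blocks. They took up 44.8 kb and 97.2 kb, of which 6.51% and 6.34% were marked, below the 9.49% and 12.2% of the blocks as a whole. Gene bodies held 1.98% and 17.9%, and bodies were a larger part of the beta blocks, 214.0 of 995.0 kb, than of the alpha block, 18.0 of 695.0 kb. Shared regions numbered 18 in the alpha block and 26 in the beta blocks. Their median fold enrichment was 2.53 in replicate 1 and 3.20 in replicate 2 in the alpha block, and 3.38 and 3.86 in the beta blocks. Over whole lists the medians were 2.84 and 3.38, and replicate 2 was the higher in 39 of the 44 shared regions.

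The strongest regions were rich in CpG and in repeated sequence. The strongest of all was chr1:18242601-18245200, which lies inside Defb41, at 10.4 and 15.1 (mean 12.7 ± 3.33). Next came chr8:19487601-19493600, 1.50 kb before the start of Defb7, at 9.54 in replicate 1 and higher in replicate 2 (mean 11.8 ± 3.17). The strongest region of the alpha block was chr8:22781401-22787000, 12.1 kb from Defa-ps9, at 9.73 and 13.7 (mean 11.7 ± 2.80). The fourth was chr8:19395001-19397600 in the proximal beta block, at 7.25 and 11.2, and the fifth was chr8:22444401-22444800, 7.28 kb from Defa5, at 6.79 and 9.91. These 5 regions had 12.5 to 28.3 CpG per kb, with a median of 23.9, against a median of 8.64 in the other 39, which reached 20.0. A median of 4.50% of their bases began a 36-base word found only once in mm9, against 28.5% in the others. The region near Defb7 and the one near Defa-ps9, in a beta and an alpha block, had 12.8% and 13.7% of their 36-base words in common, and the 5 were chosen by their strength after it was seen.

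How much of a block was marked differed more among the beta blocks than between alpha and beta. In the alpha block regions covered 12.0% of bases in replicate 1 and 19.1% in replicate 2 (mean 15.6 ± 5.02, SD, n = 2), and 9.49% were shared. Over all beta blocks together the values were 13.1% and 16.8% (mean 15.0 ± 2.59), with 12.2% shared. Replicate 1 put alpha below beta and replicate 2 put alpha above beta, so the difference in mm9 was smaller than the spread between replicates. The proximal beta block had 16.5% and 22.2%, the distal beta block 13.1% and 18.3%, and the chromosome 1 block 20.7% and 22.1%. The chromosome 2 block had 3.54% and 2.80% and the chromosome 14 block 5.69% and 3.21%, both below the genome at 8.60% and 9.93%. Of the 6 blocks, the replicates also matched least in the alpha block, where shared bases were 0.438 of all bases covered in any replicate. This share was 0.564 in the chromosome 14 block, 0.674 in the proximal beta block and 0.694 in the genome. It was as low, 0.434, in the 500 kb after the proximal beta block, so a low match was not particular to the alpha block. In the alpha block replicate 1 had 18 regions and replicate 2 had 35.

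Sequence copy number separated the alpha block from every beta block. Only 19.2% of its bases began a 36-base word found once in mm9, while 64.1% began a word with 2 to 49 copies. The share of single-copy words was 75.0% in the proximal and 78.6% in the distal beta block, 84.8% on chromosome 1 and 94.4% on both chromosomes 2 and 14, beside 85.1% in a sample of the genome, all counted outside assembly gaps, which take up 7.19% of the alpha block. Of the alpha words with 2 to 49 copies, 94.4% had another copy inside the block and 80.5% had all their copies there. Within 1 kb of the start sites the median single-copy share was 15.6% for the 23 members of the alpha block (4.15 to 84.2%) and 93.7% for the 46 members of the beta blocks (28.7 to 100%). Defa17 had the lowest, 4.15%, and Defb35, which was marked, had the lowest of the beta blocks, 28.7%.

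Within the alpha block the most repeated words had the highest marked share. Shared regions covered 29.9% of bases with 50 or more copies, 6.66% of those with 2 to 49 copies and 5.09% of single-copy bases. Of the marked bases themselves, 48.7% began words with 50 or more copies, 41.8% words with 2 to 49 and 9.56% single-copy words. In the beta blocks these shares were 35.5%, 27.6% and 7.66%, and in the genome sample 32.8%, 20.7% and 4.31%. In the alpha block, words with 2 to 49 copies were thus marked in a smaller share than over the pooled beta blocks or the genome sample. The difference was not tested. The blocks of chromosomes 2 and 14 had shares below that of the alpha block in this class, 0.607% and 6.5%. The order of the classes by copy number did not hold in 3 beta blocks. On chromosome 2, 2.81% of single-copy bases were marked and 0.358% of those with 50 or more copies. On chromosome 14 these shares were 3.12% and 2.74%, and in the distal block words with 2 to 49 copies were marked at 31.7% and those with 50 or more at 15.5%.

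**Figure D3:**
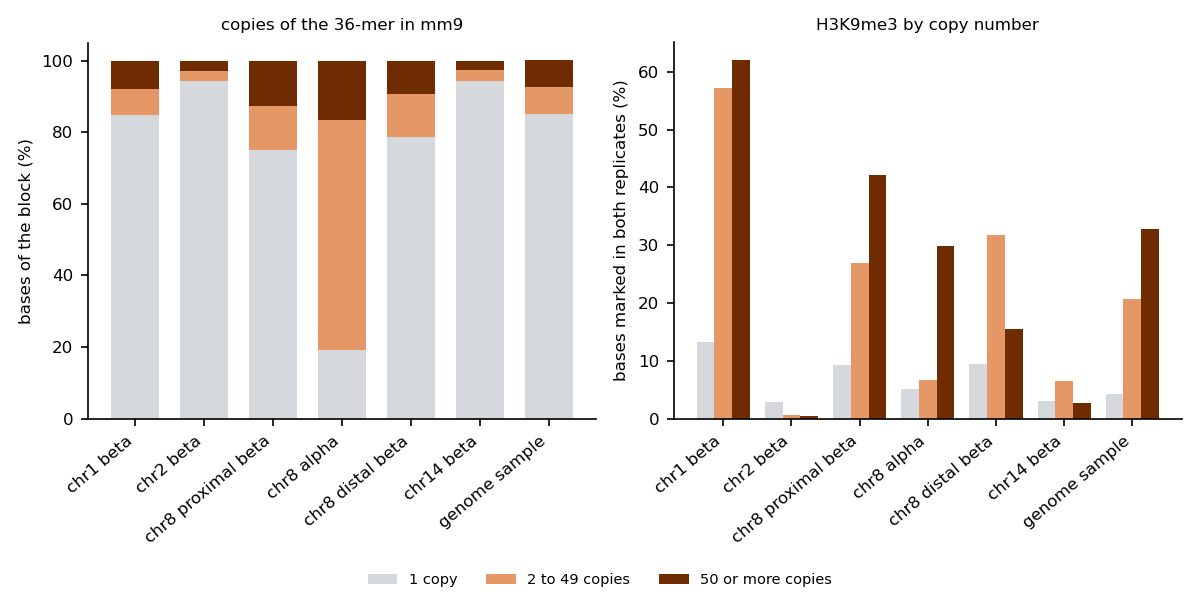
Left, share of the bases of each mm9 block that begin a 36-base word with 1, 2 to 49 or 50 and more copies in mm9 (%); right, share of bases of each class in regions of both replicates (%). The alpha block is the one with 64.1% of bases in the middle class, and 29.9% of its most repeated bases are marked.

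In mm10 the alpha block was almost empty of peaks. The authors' replicated list had 1 peak in its 724.5 kb, chr8:21091547-21091775, 3.20 kb from Defa38, which covered 0.0316% of the block. Replicate 1 had 2 peaks there (0.0511% of bases) and replicate 2 had 5 (0.144%), all of 165 to 274 bp. Over all beta blocks the replicated list covered 4.60%, with 3.27% in replicate 1 and 5.71% in replicate 2, and over the genome 3.50%. The lists of mm9 and mm10 were called in different ways, so only the ratio between builds is set side by side. The shared share in mm9 was 2.17 times the replicated share in mm10 for the genome and 2.65 times for the beta blocks, and 300.3 times for the alpha block. No other block was above 3.38 times. The alpha ratio rests on the 1 replicated peak, so its size is uncertain. It also sets bases shared by 2 lists against the authors' replicated list. In replicate 1 the alpha block had 12.0% in mm9 and 0.0511% in mm10, and in replicate 2 it had 19.1% and 0.144%.

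**Figure D4:**
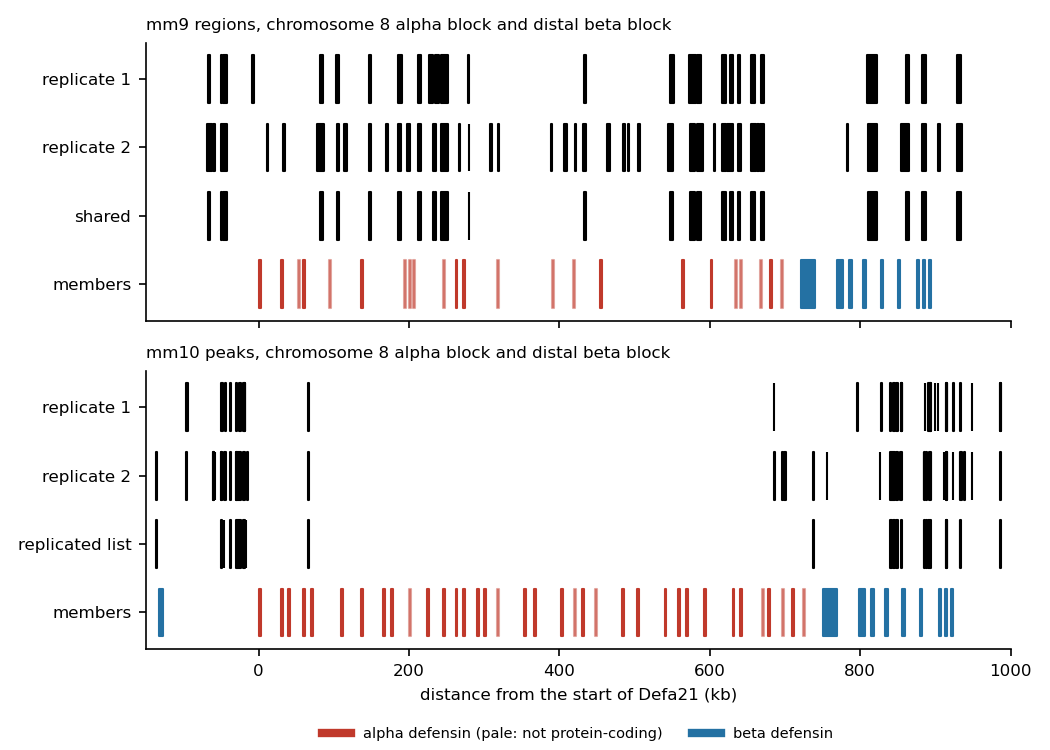
Called regions along the alpha block and the distal beta block of chromosome 8 in mm9 (top) and mm10 (bottom), by distance from the start of Defa21 (kb). Black bars are regions of each replicate and of the shared or replicated set, coloured bars are members, and peaks under 0.8 kb and genes under 2.5 kb are drawn at those widths; mm9 has 18 shared regions in the alpha block and mm10 has 1 replicated peak.

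A stretch of 672.0 kb without any replicated peak, chr8:21091776-21763321 in mm10, held the bodies of 32 members. It was the second longest such stretch on chromosome 8, after one of 769.0 kb that held none, and the median stretch on that chromosome was 3.86 kb. Defa36, near its middle, lay 335.0 kb from the nearest replicated peak, Defa5 206.0 kb, Defa3 196.0 kb, Defa17 107.0 kb and Defa24 27.9 kb. The distal beta genes begin after its end with Defb1, 12.9 kb from the nearest replicated peak, and that block had 17 replicated peaks covering 6.77% of its bases. Peaks returned on the other side of the alpha block, where Defa21 lay 17.0 kb and the beta gene Defb33, upstream of it, 2.91 kb from a replicated peak. The 500 kb before Defb33 again had few, with 0.0916% of bases covered. Assembly gaps were not measured in mm10, so how much of these stretches holds known sequence is unknown.

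The same genes were then compared in both builds. For 18114 genes found once in each annotation on the same chromosome, the 100 kb centred on the gene was measured in both builds. Of 6361 genes with at least 5% of that window in shared mm9 regions, 9.86% had under 0.5% in replicated mm10 peaks. Among alpha block genes it was 12 of 13, and among genes of the beta blocks 0 of 30. Defa17 had 24.6% in mm9 and none in mm10, Defa3 14.23% and none, Defa5 11.0% and none, and Defa24 10.8% and 0.311%. Defa21, at the edge of the block, was the exception, with 6.69% and 8.903%. Defb4 had 17.8% and 8.238%, Defb35 15.2% and 7.471%, and Defb14 17.8% and 8.654%. These thresholds were chosen after the data were seen, and neighbouring genes share their windows. Killer lectin receptor genes, another clustered family, had 3 of 14, keratin-associated protein genes 1 of 18 and serpins 0 of 42. Copy number was measured in mm9 only, and its part in the difference between builds was not tested.

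**Figure D5:**
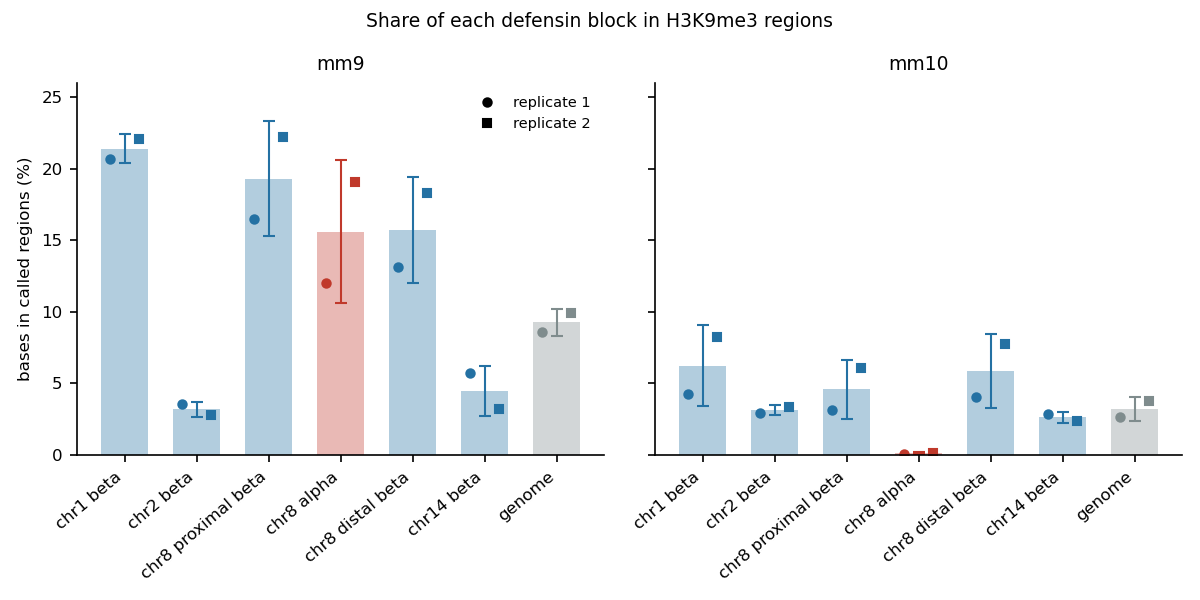
Share of bases in called regions (vertical axis, %) for each defensin block and the genome in mm9 (left) and mm10 (right). Circles are replicate 1, squares replicate 2, bars the mean and error bars the SD of 2 replicates; the alpha block has 12.0 and 19.1% in mm9 and 0.0511 and 0.144% in mm10.

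In mm10, replicated peaks overlapped member bodies in beta blocks only. A replicated peak overlapped 8 of 83 member bodies (9.64%), beside 24.5% of all gene bodies, 30.8% of protein-coding ones and 9.84% of bodies under 10 kb. Defensin genes are short, with median lengths of 0.970 kb for alpha and 3.24 kb for beta. None of the 36 bodies in the alpha block had one, with 0 in replicate 1 and 1 in replicate 2, Defa-ps10. The covered bodies were Defb4 at 43.9% of bases, Defa-ps14 at 36.8%, Defb35 at 30.2%, Defb22 at 16.2%, Defb44-ps and Defb39 at 12.1%, Defa-ps12 at 8.13% and Defb14 at 1.12%. Defb4 had 24.8% covered in replicate 1 and 49.1% in replicate 2, and Defb35 had 21.2% and 36.2%. Defb22 held the strongest peak of the 8 bodies in the replicated list, at 12.3-fold, and had 13.9 in replicate 2. In replicate 1 it had 6.70, below Defb39 at 8.84 and Defb14 at 6.76. In Defa-ps14 replicate 1 had no peak in the body and replicate 2 had 2. Defb42, marked at a start in mm9, had no peak in its mm10 body, which RefSeq gives as 1.62 kb where the mm9 annotation spans 11159 bp.

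Genes that work with defensins gave too few marked starts for a comparison with all genes. Of 46 listed antimicrobial effectors, processing enzymes, receptors and Paneth cell regulators, 1 had a shared region at a start, beside 5.54% of all protein-coding genes. It was Hamp2, a relative of the iron hormone hepcidin, at 8.87 and 12.1 (mean 10.5 ± 2.30). Mmp7, which cuts alpha defensin precursors, and Ccr6, a receptor bound by beta defensins, had none. The beta defensin relatives Spag11a and Spag11b had none either, at 13.5 and 22.4 kb from a shared region. At start sites, other clustered families lay on either side of the defensins. Marked were 2 of 46 protein-coding keratin-associated protein genes, 8 of 60 serpins and 1 of 28 killer lectin receptors. Bodies differed from starts, and 27.1% of the mm10 body of Spag11a lay in replicated peaks, with none of Spag11b. Such peaks overlapped 5 of 28 effector, 0 of 3 processing enzyme, 2 of 9 receptor and 3 of 5 regulator bodies. Over all protein-coding bodies the share was 30.8%.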

How the data were processed

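ChIP-seq of H3K9me3 in 2 replicates of 1 group was deposited as called regions. The authors deposited a fold enrichment per region, which is a linear ratio whose reference is not stated. The authors also deposited −log10 q for each mm10 peak and a linear q-value for each mm9 region. For mm10, the file lists deposited with the data trace the pooled list to both replicates' alignments, and the replicated list to the pooled list and the 2 lists of single samples. For the third list in mm9, pooling is not stated. Not given in the sources used here are the peak caller, the aligner and the treatment of multi-mapping reads. Depth is unknown.

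Regions covered in both mm9 replicates were set against GENCODE M1 starts within 1 kb, by at least 1 bp, and the replicated mm10 list against RefSeq bodies of GRCm38.p6. No coordinates were converted. Copies of 36-base words were counted on both strands of the mm9 sequence. Upstream stretches come from that sequence and were aligned globally with Biopython 1.88. Python 3.11.15, numpy 2.4.6, pandas 2.3.3 and numba 0.67.0 were used, and the interval and word counts were tested on simulated data. With 1 group no test between conditions was possible, so counts stand beside those of all genes. The mean ± SD of 2 replicates describes values called separately in each list.

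Members and lists were chosen with earlier results of these data known. Named genes were members marked at a start in any replicate, those with a replicated peak in the body, the nearest and farthest of each block, and a fixed set (Defb1, Defb2, Defb3, Defb4, Defb14, Defb19, Defb42, Defa3, Defa5, Defa17, Defa20, Defa21 and Defa24), plus listed host-defence genes with a marked start. Further names were chosen after their values were seen. Alternatives were single replicate lists, the third mm9 list and the pooled mm10 list, stricter folds or q, other windows, overlaps, join distances, and assembly gaps left out.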

Additional observations from a re-analysis of the deposited data

How the results depend on the processing

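No paired analysis was possible because the series has 1 group. The count of marked start sites depended on the list and window. For all, protein-coding, alpha and beta members it ran from 8 to 12, 4 to 5, 4 to 7 and 4 to 5 with 1 replicate left out (6.33 to 7.83% of protein-coding genes). It was 12, 5, 7 and 5 in the third mm9 list (8.47% of protein-coding genes), and 0 for each at 4-fold in both replicates (1.82%). Within 5 kb it was 20, 12, 7 and 13 (15.0%), and within 2.5 kb it was 11 for all, 6 for protein-coding and 6 for beta members (9.08%). By position only 2 alpha members were marked. The median distance of all, alpha and beta members ran from 6.23 to 8.69 kb, 4.12 to 9.08 kb and 6.84 to 8.05 kb without a replicate. It was 4.86, 3.92 and 5.42 kb in the third mm9 list and 56.0, 72.5 and 52.9 kb at 4-fold, where protein-coding genes had 17.9 and 114.0 kb.

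The share of bases covered ran from 12.0 to 19.1% in the alpha block and 13.1 to 16.8% in the beta blocks without a replicate. The third mm9 list gave 20.9 and 17.1%, the 4-fold minimum 0.863 and 3.88%, and mm10 0.0316 and 4.60%. On single-copy bases the beta share was 7.66% and the alpha share 5.09%. Alpha minus beta, −2.71 percentage points, was −1.10 with replicate 1 alone and turned to 2.34 with replicate 2 alone and 3.81 in the third mm9 list. The cause was not tested. In mm10, 8 to 13 member bodies were covered without a replicate (11.0 to 13.1% of bodies under 10 kb) and 23, or 27.7%, with 5 kb on either side (28.9%). In the alpha block these were 0 to 1 and 1. The 12 of 13 alpha genes marked in mm9 and not in mm10 windows became 11 of 11 in windows of 50 kb and 12 of 14 at 200 kb. They were 9 of 9 at a threshold of 10% in mm9 and 12 of 13 at 1% in mm10. Over all genes these 4 shares were 15.9, 5.54, 7.19 and 13.3%. Beta genes gave 1 of 25 at 50 kb, 1 of 30 at 1% in mm10 and 0 in the other settings. Single-copy bases, the block split, position and gene windows were chosen after seeing the data. Without read counts, depth sets an unknown limit on what was called.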
